A study of Rattus norvegicus with 3 samples.

Results

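Hcn2, Hcn3 and Hcn4 encode hyperpolarization-activated, cyclic nucleotide-gated channels, the pores of the pacemaker current (Ih). These 3 genes were taken by symbol from 30957 genes measured in rat motor cortex, and each symbol had a single gene identifier. Statements on rank hold among these 3 genes. The tissue came from 3 male rats of the outbred Sprague-Dawley stock, with no treatment, which the labels call normal and give a time of 8 weeks without saying whether it is an age. No other group, treatment or allele was included, and each animal (numbers 32, 39 and 68) gave 1 mRNA library. The data therefore describe how much of each channel transcript this cortex held, in which proportion, and how steady that proportion was between animals.

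HCN channels open when the membrane becomes more negative and are permeable to sodium and potassium ions. Their net inward current pulls the potential back towards threshold. Direct binding of cyclic AMP to the intracellular end of the protein makes opening easier in HCN2 and HCN4, whereas HCN3 responds weakly to it. In pyramidal neurons the current lies mostly in dendrites, where it lowers input resistance and shortens synaptic potentials. HCN2 is widespread in brain, HCN4 is the main pacemaker subunit of the sinoatrial node and is also prominent in thalamus, and HCN3 is usually a minor neuronal subunit.

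Values are FPKM, fragments per kilobase of gene scaled by library size, as deposited, so levels of different genes are compared per length. Inferred library sizes ran from 15460000 fragments (animal 39) to 17660000 (animal 68), with 16550000 for animal 32. Markers of cortical neurons were present in every library, with the glutamatergic list, led by Nrgn and Camk2a, at a median of 297 ± 12.1 FPKM (SD, n = 3). The thalamic list, led by Ramp3 and Prkcd, stood at 2.97 ± 0.548 FPKM, with its marker Gbx2 listed at 0 in every library. Animal 68 stood apart in several marker lists, and those values are given with the results they accompany. Nothing in the labels separates the animal from its dissection and library, so p-values concern the spread between these 3 libraries.

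Hcn2 lay on chromosome 7 of Rnor_6.0 (12851739 to 12874215, minus strand; ENSRNOG00000008831) and was expressed at 57.6, 56.4 and 40.6 FPKM in animals 32, 39 and 68. Animals 32 and 39 were close to each other, and animal 68 was the lowest. The mean was 51.5 ± 9.46 FPKM (SD, n = 3), and 1439 of the 30957 genes had a higher mean. This level rested on 953, 872 and 718 inferred fragments per kilobase of gene in the same order.

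The sequence just before the Hcn2 start is shown because Hcn2 carries most of the transcript counted here, and it was the 1 of the 3 members matched in the RefSeq promoter table. It covers the 250 bases before the start on the minus strand in build GRCr8 (chr7:10639458-10639707), a different build from that of the expression tables. Capitals mark matches to the GC box, the letters GGGCGG on either strand (CCGCCC when read on the other strand).
Hcn2: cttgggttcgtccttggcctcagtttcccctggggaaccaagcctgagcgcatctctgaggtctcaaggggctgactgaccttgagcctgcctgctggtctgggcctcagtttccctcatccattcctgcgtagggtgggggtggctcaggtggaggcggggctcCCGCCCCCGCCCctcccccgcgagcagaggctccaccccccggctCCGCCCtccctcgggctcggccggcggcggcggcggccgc
The window held 3 GC boxes, which began 85, 79 and 40 bases before the start, the first of them adjoining the next. At least 1 GC box was found in 30.5% of 33469 promoter windows of this length, and at least 3 in 7.41%. The window was 71.6% G or C, against a median of 51.2% over all windows, and 93.6% of windows had less. That median was higher, 62.4%, for genes within 2-fold of the Hcn2 level and 60.8% for genes that averaged 1 FPKM or more. Among genes matched by symbol, a GC box was found before 66.0% of 1834 genes within 2-fold of the Hcn2 level, 59.8% of 9211 genes that averaged 1 FPKM or more and 27.7% of 3954 genes below that. These matches are letters in a window and were not measured as binding sites.

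Hcn3 lay on chromosome 2 (188454853 to 188471988, minus strand; ENSRNOG00000020444) and was expressed at 4.38, 3.49 and 3.41 FPKM in animals 32, 39 and 68. Animal 32 was the highest, and the other two were close to each other. The mean was 3.76 ± 0.540 FPKM (SD, n = 3), from 72.5, 54.0 and 60.2 inferred fragments per kilobase. The 3′ part of its locus overlapped Pklr, a pyruvate kinase gene on the opposite strand, over 4740 bases. Pklr was listed at 0 FPKM in all 3 libraries, and without stated strand information fragments of the shared bases cannot be assigned to either gene.

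Hcn4 lay on chromosome 8 (63600663 to 63639654, plus strand; ENSRNOG00000009450) and was the lowest of the 3, at 0.996, 0.856 and 0.605 FPKM in animals 32, 39 and 68. Its mean was 0.819 ± 0.198 FPKM (SD, n = 3), which is under the 1 FPKM used below as the filter on low values. It was detected in every library, but from only 16.5, 13.2 and 10.7 inferred fragments per kilobase. The members did not overlap in level: the lowest Hcn2 value was above the highest Hcn3 value, and the lowest Hcn3 value above the highest Hcn4 value.

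**Figure D1:**
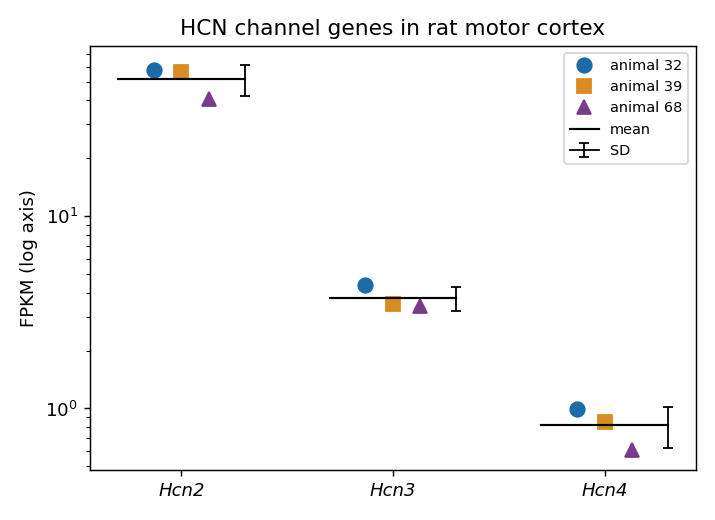
FPKM of Hcn2, Hcn3 and Hcn4 (log axis) in each of the 3 animals, with the mean as a line and the SD as a bar. The levels fall from 51.5 to 3.76 and 0.819 FPKM on average, with no overlap between genes, and animal 68 is the lowest point for each gene.

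The order of the members was tested on the ratio within each animal. Every gene that averaged 1 FPKM or more, and each member whatever its mean, was set against the second gene of the pair as log2(FPKM + 0.1), which understates ratios of low genes. The 3 pairs were read from those fits over 13378 genes each, in limma with Benjamini-Hochberg adjustment over all of them and a threshold of 0.05. Most genes differ from any single reference in such a fit, and the share that does is given beside each result.

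Hcn2 exceeded Hcn3 by log2 ratios of 3.69, 3.98 and 3.54 in animals 32, 39 and 68. The mean was 3.73 (SE 0.19, n = 3; limma adjusted p = 2.74e-07), a 13.3-fold excess seen in 3 of 3 animals. Of all genes in that fit, 83.3% were called either way and 68.6% above Hcn3. Hcn2 exceeded Hcn4 by 5.72, 5.89 and 5.85, with a mean of 5.82 (SE 0.25; limma adjusted p = 2.29e-10) or 56.4-fold. Hcn3 exceeded Hcn4 by 2.03, 1.91 and 2.31, with a mean of 2.08 (SE 0.26; limma adjusted p = 4.00e-06) or 4.24-fold. Against Hcn4, 94.9% of all genes were called above, so a call there is what most expressed genes give. The ratio of Hcn2 to Hcn4 varied little between animals (SD 0.090 on the log2 scale), less than those of Hcn2 to Hcn3 (0.22) and Hcn3 to Hcn4 (0.21), a difference in spread that was not tested. Errors of gene length and mapping are shared by the 3 libraries and are not in these p-values.

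**Figure D2:**
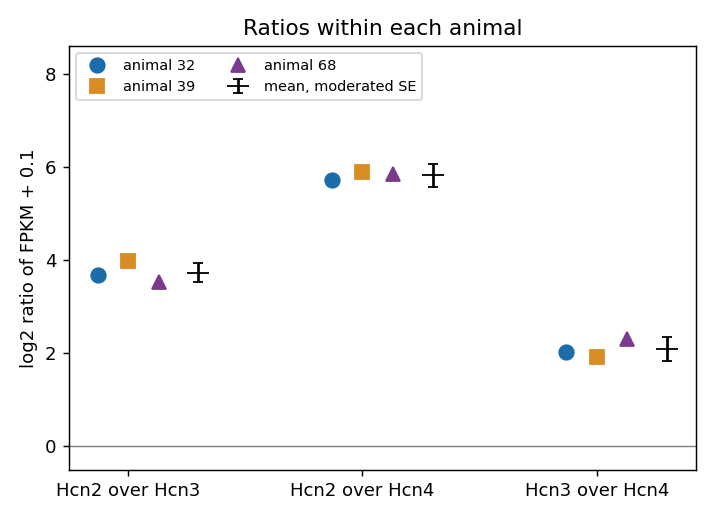
Log2 ratio of FPKM + 0.1 within each animal for the 3 pairs of members, with the limma mean and its moderated SE. All 9 points lie above 0, and the mean ratios are 3.73, 5.82 and 2.08.

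Hcn2 made up 91.5, 92.9 and 91.0% of the summed FPKM of the 3 genes in animals 32, 39 and 68. Hcn3 made up 6.96, 5.74 and 7.63%, with its lowest share in animal 39. Hcn4 made up 1.58, 1.41 and 1.36%. The sum itself was 62.9, 60.8 and 44.6 FPKM, so the total was lowest in animal 68, while the Hcn2 share stayed between 91.0 and 92.9%.

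Between animals, Hcn2 varied more than most genes of its level. Its SD was 0.28 on the log2 scale, against a median of 0.15 for the 2534 genes within 2-fold of its mean, and 77.9% of those genes had a smaller SD. For Hcn3 the SD was 0.20 against a median of 0.26 for 4093 genes of like level, and for Hcn4 it was 0.33 against 0.46 for 2456 genes. These ranks are descriptions of 3 libraries and carry no test.

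Of the 4 neuronal marker lists, 2 were ordered between the animals as Hcn2 was and 2 were not. The 12 pan-neuronal genes, led by Snap25 and Thy1, stood at a median of 221, 199 and 173 FPKM in animals 32, 39 and 68. For the 8 GABAergic neuron genes, led by Sst and Pvalb, it was 64.5, 52.4 and 43.3 FPKM. The glutamatergic median was 284, 308 and 301 FPKM and the median of deep-layer projection neuron genes, led by Pcp4 and Crym, 12.6, 15.6 and 12.8, both lowest in animal 32, where Hcn2 was highest. In bulk tissue, fewer cells of a type and less RNA per cell cannot be told apart. Relative to the pan-neuronal median within each animal, Hcn2 stood at 26.1, 28.4 and 23.4%. Its coefficient of variation was 18.4% in FPKM and 9.49% on this relative scale. Relative to the GABAergic median it was 9.89%, but relative to the glutamatergic and deep-layer medians it was 20.0 and 18.7%, no smaller than in FPKM. Hcn3 stood at 1.99, 1.75 and 1.96% of that median and Hcn4 at 0.452, 0.430 and 0.349%, so Hcn4 was again lowest in animal 68.

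The medians of the glial marker lists were ordered the opposite way. For the 8 oligodendrocyte genes, led by the myelin gene Mbp, the median was 119, 204 and 373 FPKM in animals 32, 39 and 68. HCN2 has been described in rodent oligodendrocytes as well as neurons. Relative to the oligodendrocyte median, Hcn2 was 48.3, 27.6 and 10.9%, a coefficient of variation of 64.8%, wider than relative to the pan-neuronal median. The median of astrocyte genes, led by S100b and Glul, followed the same order (79.9, 162 and 277 FPKM). So did that of microglial genes, led by C1qa and Csf1r (6.28, 9.80 and 14.3 FPKM). S100b and Glul themselves were lowest in animal 39 (450 and 423 FPKM), so the astrocyte order holds for the median and not for every gene.

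Of the lists for neighbouring structures, the medians for choroid plexus and striatum were also highest in animal 68. The 8 choroid plexus genes, led by Ttr and Enpp2, had medians of 0.630, 3.42 and 51.9 FPKM, with summed levels of 60.9, 704 and 8156, and none was at 0 in all libraries. The 8 striatal genes, led by Ppp1r1b, had medians of 2.59, 3.57 and 14.7 FPKM, with summed levels of 126, 102 and 242. The thalamic list, from a structure where Hcn2 and Hcn4 are prominent, had medians of 3.60, 2.74 and 2.58 FPKM. Endothelial genes, led by Itm2a and Cldn5, stood at 22.2, 20.2 and 20.6 FPKM. The part of tissue composition in the level of Hcn2 was not tested. Without animal 68 the Hcn2 mean was 57.0 FPKM, and its log2 ratio to Hcn3 was 3.83.

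**Figure D3:**
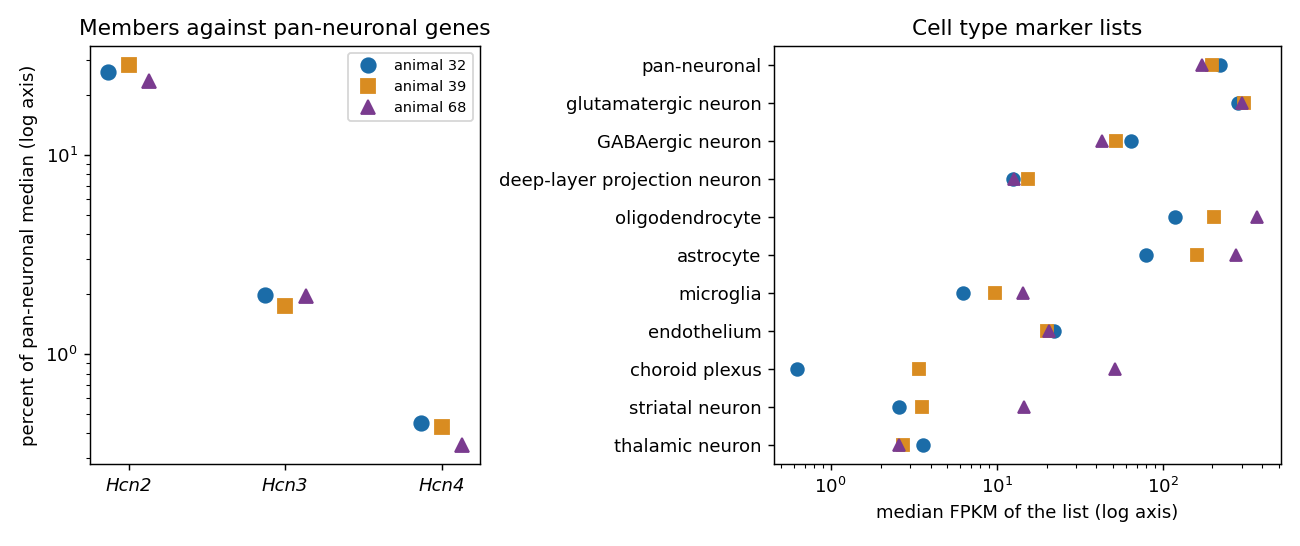
Left, each member as a percent of the pan-neuronal median within an animal (log axis); right, median FPKM of each cell type marker list in each animal (log axis). Hcn2 lies between 23.4 and 28.4% of the pan-neuronal median, while the choroid plexus list spans 0.630 to 51.9 FPKM.

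How the channel genes compare with the genes around them was read from the fit against Hcn2, in which 89.9% of 13378 genes were called (limma, adjusted p under 0.05), 6.68% above Hcn2 and 83.2% below. The median gene stood at a log2 ratio of -2.30 to Hcn2.

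The closest relatives are the CNG channels of sensory cells and the KCNH potassium channels, which share the cyclic nucleotide-binding fold. Of these 14 genes, 7 averaged 1 FPKM or more, all 7 were KCNH genes, and all 7 were called below Hcn2, with a median log2 ratio of -3.76. In the same fit 83.2% of all genes were called below Hcn2. Kcnh3, an ELK-type channel of forebrain, came nearest, at 39.4, 35.7 and 16.1 FPKM in animals 32, 39 and 68 (log2 ratio to Hcn2 -0.84, SE 0.24; limma adjusted p = 0.0096), a call lost without animal 39 (adjusted p = 0.0805). Kcnh1, an EAG-type channel, measured 14.4 ± 4.42 FPKM, and Kcnh2, the ERG channel of cardiac repolarization, 9.42 ± 2.05. Kcnh4 was at 3.85 ± 1.47 FPKM, a level like that of Hcn3. The 6 CNG genes reached at most 0.103 FPKM in any library, and Cnga2, the olfactory subunit, was listed at 0 in all 3.

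Among proteins that bind or regulate HCN channels, 4 genes were not called different from Hcn2. Of 14 symbols, 12 were found and 11 were tested, of which 7 were called below Hcn2, none above and 4 neither way, with a median log2 ratio of -0.81. Over all genes of the fit against Hcn2, 83.2% were called below and 6.68% above. Pex5l encodes TRIP8b, the auxiliary subunit that sets HCN trafficking and cyclic AMP response in rodent neurons. It measured 47.9, 66.9 and 50.8 FPKM in animals 32, 39 and 68, with a log2 ratio to Hcn2 of 0.10 (SE 0.23; limma adjusted p = 0.680), and it was above Hcn2 in 2 of 3 animals. Vapa and Vapb, membrane proteins of the endoplasmic reticulum reported to raise HCN current, measured 68.6 ± 2.88 and 50.2 ± 0.505 FPKM. The tyrosine phosphatase gene Ptpra measured 54.7 ± 9.32 FPKM. Log2 ratios to Hcn2 were 0.43 for Vapa, -0.02 for Vapb and 0.09 for Ptpra, and none passed the test (limma adjusted p of 0.0915, 0.930 and 0.747). A p above the threshold does not show that levels are equal. Vapa passed without animal 68 (0.30; limma adjusted p = 0.0390) and with a mean-dependent prior (limma adjusted p = 0.0340).

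Among partners tied to the minor members, Kctd3, which binds HCN3 in mouse, was expressed at 29.0 ± 1.35 FPKM. It exceeded Hcn3 itself by a log2 ratio of 2.92 (SE 0.19, n = 3; limma adjusted p = 9.08e-07) and was below Hcn2 (-0.81; limma adjusted p = 0.00754). Lrmp and Mrvi1, described as regulators of HCN4, were at 3.97 ± 0.305 and 1.93 ± 0.624 FPKM, log2 ratios of 2.17 and 1.11 over Hcn4 (limma adjusted p of 2.76e-06 and 0.0011). Of all genes in these fits, 68.6% were called above Hcn3 and 94.9% above Hcn4. Calls above Hcn3 or Hcn4 are therefore what most expressed genes give. Cav3, a caveolin of muscle, was listed at 0, 0.0956 and 0.795 FPKM. Kcne2, a small subunit reported to modulate HCN currents and also abundant in choroid plexus, stood at 2.92, 4.18 and 24.96 FPKM in animals 32, 39 and 68. Its high value fell in the animal with the highest choroid plexus markers, and their part in it was not tested. The count of genes called below Hcn2 in this list was 4 without animal 32 and 4 without animal 39. Kctd3, Nedd4l and Dlg1 lost their call in both cases.

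Cyclic AMP is made by adenylyl cyclases, and 8 of the 10 cyclase genes passed the filter. Of these, 5 were called below Hcn2, none above and 3 neither way, where 83.2% of all genes were called below and 6.68% above. The calcium-stimulated cyclase Adcy1 measured 62.2, 99.5 and 41.0 FPKM in animals 32, 39 and 68, above Hcn2 in 3 of 3 animals by a mean log2 ratio of 0.31 (SE 0.24) that did not pass (limma adjusted p = 0.244). Adcy2 (47.9 ± 12.5 FPKM) and the striatum-rich cyclase Adcy5 (34.5 ± 7.79 FPKM) did not pass either, with limma adjusted p of 0.586 and 0.0681. Adcy5 was highest in animal 68, as were the striatal markers, and without that animal it was called below Hcn2 (log2 ratio -0.92; limma adjusted p = 0.00172). It was also called below with a pseudocount of 1, a filter of 5 FPKM or a mean-dependent prior (limma adjusted p of 0.0376, 0.0379 and 0.0237). Adcy9 followed at 17.5 ± 1.06 FPKM.

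Phosphodiesterases, which remove cyclic nucleotides, held the only gene of these pathway lists that was called above Hcn2. Pde2a, a phosphodiesterase stimulated by cyclic GMP, measured 113, 97.9 and 83.9 FPKM in animals 32, 39 and 68 and exceeded Hcn2 in each. Its log2 ratio to Hcn2 was 0.94 (SE 0.21, n = 3; limma adjusted p = 0.00273), a call lost without animal 39 (adjusted p = 0.0591). Of the 15 genes, 12 were called below Hcn2 and 1 above. These shares were near those of all genes in the fit, 83.2% below and 6.68% above. The calmodulin-dependent genes Pde1b (56.3 ± 2.79 FPKM) and Pde1a (46.7 ± 6.13 FPKM) were called neither way (limma adjusted p of 0.547 and 0.552). Pde8b followed at 23.4 ± 10.4 FPKM.

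For channels that set the resting and subthreshold potential together with Ih, the share called below Hcn2 was near the 83.2% of all genes. Of 20 symbols, 19 were found and tested, and 15 were called below, none above and 4 neither way, with a median log2 ratio of -1.84. The inward rectifier genes Kcnj3 (42.2 ± 12.7 FPKM) and Kcnj9 (39.7 ± 19.7 FPKM) and the two-pore leak channel gene Kcnk4 (38.3 ± 18.8 FPKM) did not pass, with limma adjusted p of 0.191, 0.101 and 0.0771. Kcnk4 and Kcnj9 were called below Hcn2 with a mean-dependent prior (limma adjusted p of 0.0282 and 0.0434), and Kcnk4 also with a pseudocount of 1 or a filter of 5 FPKM (0.0450 and 0.0443). Kcnj3, Kcnj9 and Kcnk4 were lowest in animal 68, as was Hcn2.

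**Figure D4:**
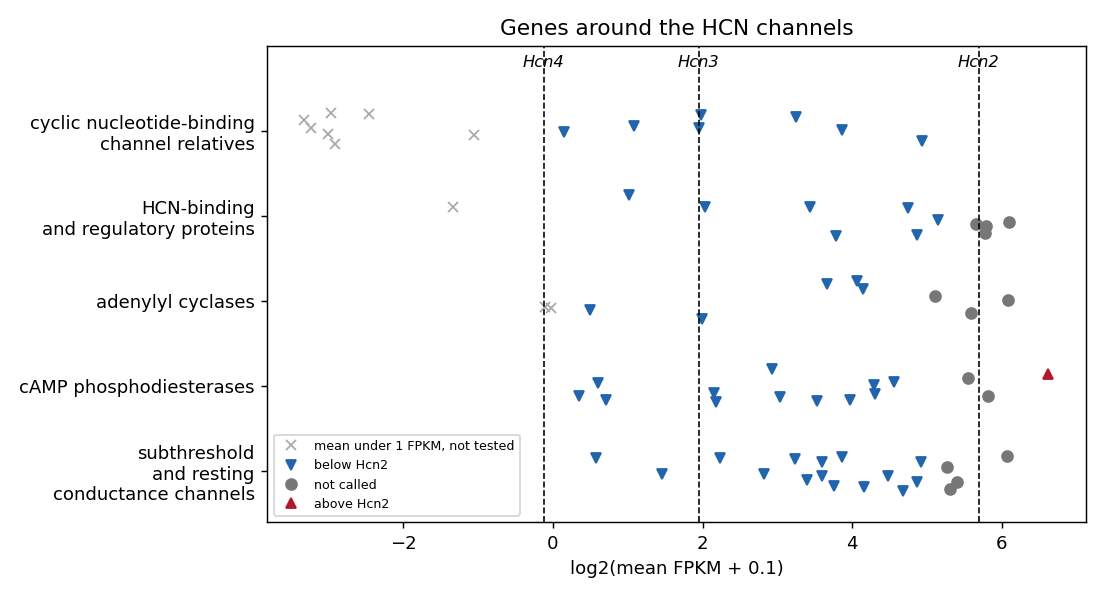
Each point is a gene placed at log2(mean FPKM + 0.1) over the 3 animals, by list, with dashed lines at Hcn4, Hcn3 and Hcn2; the vertical spread within a list only separates points. Symbols give the call against Hcn2 (limma adjusted p under 0.05), and Pde2a is the 1 gene called above it.

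The listed genes whose pattern over the animals was most like that of each member were found by the root mean square distance of log2 values centred on each gene, over 3 libraries and among 146 listed genes past the filter. For Hcn2 these were Kcnh2 (distance 0.045), the endothelial gene Cldn5 (0.051) and Pde4c (0.052). For Hcn3 they were the scaffold gene Dlg1 (0.037), the endothelial gene Itm2a (0.048) and the synaptic vesicle gene Syt1 (0.076). For Hcn4 they were Pde4c (0.029) and the neuronal genes Rbfox3 (0.029) and Syn1 (0.049). With 3 libraries such nearness is common: 215 of 13377 genes were as near to Hcn2 as Kcnh2 was, 130 as near to Hcn3 as Dlg1, and 69 of 13378 as near to Hcn4 as Pde4c.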

How the data were processed

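FPKM values were deposited, computed by the authors with a Perl script after counting fragments for each gene, per the labels. The submitters' processing notes name HISAT2 2.0.4, StringTie 1.3.0 and Rnor_6.0 but give no order. Strandedness, read length and annotation release were not given in the sources used here. Depth was inferred from genes with spans up to 400 bases, whose values are whole multiples of 1 fragment; at the chosen depth 88.9, 88.8 and 88.7% of them were within 0.02 fragments of a whole number, partly by construction. Depth covers counting error only.

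Ratios were tested in limma 3.58.1 (R 4.3.3) with 1 prior variance (5.87 prior degrees of freedom against Hcn2), after a test on simulated data. With 3 animals, an exact test by flipping signs reaches no p under 0.25. Of 162 listed symbols, 157 were found. The members and lists were chosen with earlier results of these data known. Named genes are the members, the 4 highest and the uncalled genes of each pathway list, the highest markers and the nearest 3 genes in pattern; Kctd3, Nedd4l, Lrmp, Mrvi1, Cav3, Kcne2, Cnga2, Gbx2 and genes beside the members were chosen after their values were seen. List counts and medians include a few genes that are not reported here by name. Alternatives changed the pseudocount, filter, scaling and prior, used a 2-fold bound, and left out each animal. Python 3.11.15 with pandas 2.3.3 and numpy 2.4.6 was used for the rest.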

Additional observations from a re-analysis of the deposited data

How the results depend on the processing

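The 3 ratios between members kept their direction and stayed past the threshold under all 12 alternatives each. Changes of filter, prior or bound left the ratio itself as it was, so its direction could not change there. Scaling each library by 1 factor nearly cancels within an animal. Over all 12 alternatives Hcn2 over Hcn3 ran from 3.45 to 3.83, Hcn2 over Hcn4 from 4.84 to 5.97 and Hcn3 over Hcn4 from 1.39 to 2.20 (log2). The highest limma adjusted p were 0.000652, 2.02e-06 and 0.000780. Leaving out 1 animal gave 3.61 to 3.83, 5.78 to 5.87 and 1.97 to 2.17. Levels and shares moved by less than 1 SD under all 30 alternatives run for them. Leaving out 1 of 3 animals cannot move a mean by that much, and scaling a whole library cannot change a share. Those alternatives were bound to stay within 1 SD and say nothing on how stable the values are. Of 60 recounts of the lists, 6 moved by over 1.5 times. KCNH and CNG genes called against Hcn2 numbered 13 with no filter and 3 with a filter of 5 FPKM, which changes how many are tested. The phosphodiesterase count was 8 with the filter of 5 FPKM. The count for HCN-binding proteins was 4 against a bound of 2-fold and ran from 4 to 8 when 1 animal was left out. The ratios are paired within animals by construction, and no pairing between groups exists because the study has 1 group. Depth limits Hcn4 most, and 3 animals limit every SD.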

Other observations

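Genes that neighbour the members within 5 kb were measured in the same tables. Bsg, which encodes the cell surface protein basigin, lay 1321 bases from Hcn2 on the same strand and measured 280, 301 and 304 FPKM in animals 32, 39 and 68, so it was lowest where Hcn2 was highest. Polrmt, the mitochondrial RNA polymerase gene, lay 585 bases from Hcn2 on the opposite strand at 8.13 ± 1.09 FPKM. Clk2, a splicing kinase gene 4831 bases from Hcn3 on the opposite strand, measured 14.1 ± 0.454 FPKM. No other gene of the tables lay within 5 kb of Hcn4.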
